A study of Mus musculus with 27 samples.

Results

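Loss of XLF was compared on a background that had already lost PAXX. The comparison set 6 libraries of XLF-/-PAXX-/- cells against 6 libraries of PAXX-/- cells, 12 of the 27 samples of the series, chosen by genotype and by the library named on each line of the deposited tables. Each genotype was 2 clones of 3 libraries. They held 84716 of the 193201 junctions in the series. All cells were CH12F3, a mouse B-cell line used as a model of switching to IgA, and DNA was taken after 72 h with IL-4 at 20 ng/mL, αCD40 at 1 mg/mL and TGFβ at 1 ng/mL. The PAXX-/- clones came from the parental line. Both double-mutant clones were made from a single PAXX-/- clone, and which one is not given in the sources used here. They therefore share an origin, and a difference from the PAXX-/- clones can include whatever that origin carried.

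Class switching joins a break in the Sμ switch region to a break in a downstream switch region, here Sα, and removes the DNA between them. Such breaks start from deamination by the enzyme AID, which favours AGCT. Classical non-homologous end joining seals most of them with little or no shared sequence. XLF and PAXX are structurally related accessory factors of this pathway, which act with the Ku proteins and with the XRCC4 and DNA ligase 4 complex. When the pathway is impaired, switch joins can still form by alternative end joining, which often pairs a few matching bases (microhomology) at the ends.

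LAM-HTGTS reads from a fixed bait sequence, here just 5′ of Sμ, into the DNA joined to it, called the prey. Bait and prey were placed on chromosome 12 of mm9, on the minus strand. The bait covered 131 positions, counted from 1 at its 5′ end, and is shown because its ends differed between the genotypes and because clones carried different bases in it. Capitals mark a palindrome at positions 57 to 76 (chr12:114664835-114664854) in the first line and positions 76 to 86 in the second, which shows bait positions 51 to 100.
Bait, chr12:114664780-114664910: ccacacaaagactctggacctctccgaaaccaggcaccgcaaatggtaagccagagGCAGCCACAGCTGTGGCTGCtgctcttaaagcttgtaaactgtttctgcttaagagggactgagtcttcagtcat
Bait 51 to 100, chr12:114664811-114664860: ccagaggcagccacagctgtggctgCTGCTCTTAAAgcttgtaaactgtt

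The clones held 20654 and 14847 junctions in PAXX-/- and 25736 and 23479 in the double mutant, and single libraries 4334 to 9979. The Sα window (chr12:114489501-114509500) held 17812 junctions in PAXX-/- and 21751 in the double mutant, 1710 to 4419 in a library. All double-mutant libraries came from 1 sequencing run, and the PAXX-/- libraries from 2 others, so the run cannot be told apart from the genotype. Values were compared over libraries by an exact two-sided permutation test (924 splits, smallest p 0.00216). At the level of clones only 6 splits exist and no p under 0.333 is possible, so these p-values measure the spread between libraries and are not evidence at the level of clones. Of 25 planned measures, 20 passed after Benjamini-Hochberg adjustment (80.0%), and 16 had no overlap between the libraries of the genotypes. In 22 of the 25, both double-mutant clone means lay on the same side of both PAXX-/- clone means. The measures overlap and were chosen with earlier results of these data known. These counts are therefore not counts of independent results.

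Sα joins in the double mutant used shared bases more often and were sealed directly less often. Direct joins, in which no base is shared or inserted, were 16.6%, 17.5% and 17.3% of Sα junctions in the libraries of PAXX-/- clone 1 and 17.5%, 16.1% and 16.3% in clone 2. Double-mutant clone 1 gave 5.70%, 6.19% and 5.93%, and clone 2 gave 5.84%, 5.99% and 5.42%. No library of either genotype entered the range of the other. The difference was -11.0 percentage points (95% interval -11.7 to -10.4, adjusted exact permutation p = 0.00338), a direct share 2.89-fold lower. With insertions left out, microhomology accounted for 75.4% to 77.4% of joins in the PAXX-/- libraries and 92.1% to 92.9% in the double-mutant libraries, a difference of 16.4 percentage points. These ranges did not overlap.

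The fall in direct joins was seen in every class of Sα junction examined, described here without a further test. Among joins inside the core of Sα it went from 17.1% and 16.6% in the PAXX-/- clones to 5.89% and 5.88%, and outside the core from 18.0% and 16.7% to 6.19% and 4.97%. Among deletional joins, whose orientation removes the DNA between bait and prey, the values were 17.1% and 16.7% against 5.94% and 5.81%. Inversional joins, in the other orientation, gave 17.7% and 13.6% against 5.93% and 5.42%. The direct share was thus lower in the double mutant within each class, whatever its position or orientation.

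**Figure D1:**
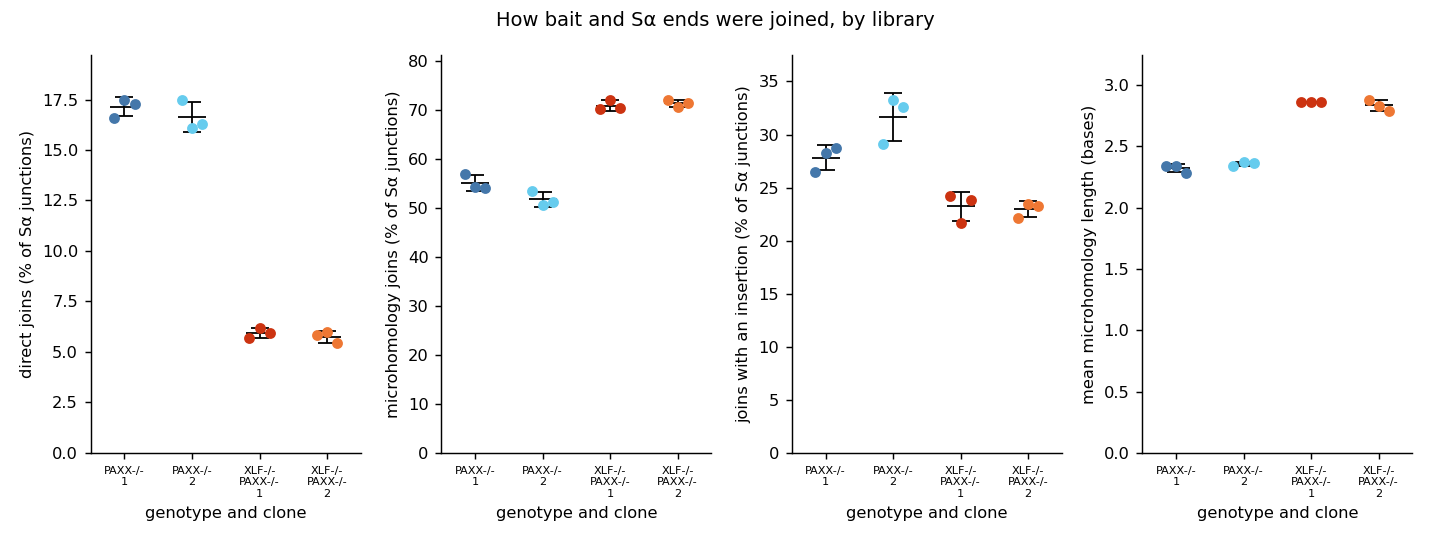
Direct, microhomology and insertion joins as a percentage of Sα junctions, and mean microhomology length in bases, with 1 point a library and bars for the mean ± SD of the 3 libraries of a clone. Direct shares lie between 16.1% and 17.5% in PAXX-/- and between 5.42% and 6.19% in the double mutant.

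Longer matches gained most of the ground. Microhomology averaged 2.34, 2.34 and 2.28 bases in the libraries of PAXX-/- clone 1 and 2.34, 2.37 and 2.36 in clone 2. Each library of double-mutant clone 1 gave 2.86, and clone 2 gave 2.88, 2.83 and 2.79. The ranges were apart, and the means differed by 0.503 bases (95% interval 0.465 to 0.542, adjusted exact permutation p = 0.00338). Of 11 overlap lengths from 0 to 10 bases, 10 passed (90.9%). Lengths 2 to 9 were higher in the double mutant and lengths 0 and 1 were lower. The single-base match fell from 18.2% to 11.3% of Sα junctions, so it moved with direct joins, whereas the 2-base match rose from 15.2% to 22.3%. Matches of 4 or more bases rose from 13.7% ± 0.650 to 25.1% ± 0.820 of joins without insertions (SD, n = 6 each).

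**Figure D2:**
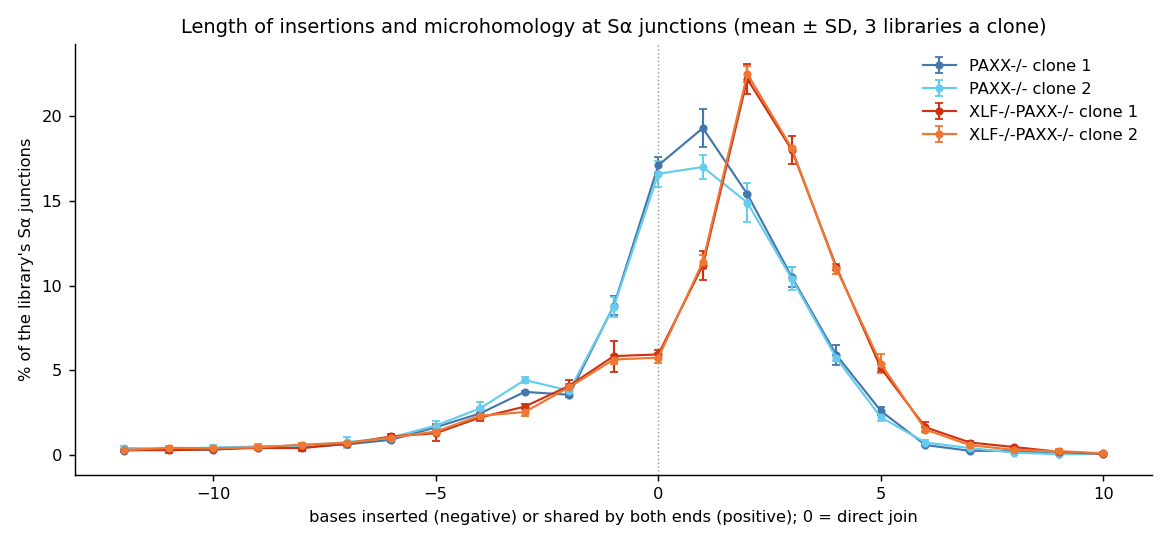
Share of Sα junctions by the number of bases inserted (negative) or shared (positive), mean ± SD of 3 libraries a clone. The PAXX-/- clones peak at 1 shared base (19.3% and 17.0%) and the double-mutant clones at 2 (22.2% and 22.5%).

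Among the 10 most frequent shared sequences of 3 or more bases, the balance between sequences differed, and these are given as descriptions. CAG was the shared sequence in 0.569% ± 0.196 of PAXX-/- and 1.73% ± 0.0826 of double-mutant Sα junctions (SD, n = 6 each). TGG went from 0.733% to 1.52% and GGC from 0.715% to 1.26%. GCTG went the other way, from 1.77% ± 0.258 to 1.10% ± 0.141, although matches of its length rose as a class. The most frequent sequence, GCT, stood at 2.20% ± 0.445 and 1.93% ± 0.251, within the spread of libraries.

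Reads of the most frequent exact Sα junctions show what these kinds look like, with the bait on the left. Capitals mark the last 2 bait and first 2 prey bases of a direct join, the shared bases of a microhomology join, and the inserted base of an insertion.
PAXX-/-, direct, bait end 47 joined at 114501575: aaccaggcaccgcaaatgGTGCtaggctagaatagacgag
XLF-/-PAXX-/-, direct, bait end 66 joined at 114499344: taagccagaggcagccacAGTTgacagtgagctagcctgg
PAXX-/-, microhomology, bait end 74 joined at 114501590: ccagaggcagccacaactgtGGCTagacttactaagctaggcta
XLF-/-PAXX-/-, microhomology, bait end 53 joined at 114497592: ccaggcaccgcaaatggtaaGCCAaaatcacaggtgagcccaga
XLF-/-PAXX-/-, insertion, bait end 66 joined at 114499902: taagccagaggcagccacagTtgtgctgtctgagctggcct
The double-mutant microhomology join was read 3 times in each double-mutant clone, once per library, and 1 time in PAXX-/- clone 2. The PAXX-/- direct join was read 3 times, in clone 2 only. The PAXX-/- microhomology join was read 4 times in clone 2 and 1 time in clone 1. Its read has A in place of G at position 66. The double-mutant direct join was read 3 and 2 times in its clones, against 0 and 1 in PAXX-/-. The insertion was read 2 and 3 times, against 1 and 2. A PAXX-/- insertion is not shown. The base inserted in the last read is also the changed base that follows position 66 on some chromosomes of these clones, described below. The direct double-mutant read continues after position 66 with letters that a bait carrying that base also has, so on such a chromosome it would share bases with its prey.

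Insertions were less frequent in the double mutant, and their sequences differed. They made up 26.5%, 28.3% and 28.7% of Sα junctions in PAXX-/- clone 1 and 29.1%, 33.3% and 32.6% in clone 2, against 24.2%, 21.7% and 23.8% and then 22.1%, 23.5% and 23.3% in the double-mutant clones. The ranges did not overlap (difference -6.60 percentage points, 95% interval -9.19 to -4.09, adjusted exact permutation p = 0.00338). Part of what is listed as an insertion was bait sequence that continued after 1 changed base. When any such read was realigned, the difference was -4.39, with clone values of 21.2% and 23.6% against 18.2% and 17.7%. Of 20 insertion lengths, 2 passed (10.0%), and insertions of 1 and of 3 bases were lower. The single-base class fell from 8.79% ± 0.520 to 5.74% ± 0.615 (SD, n = 6 each).

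The 5 most frequent longer inserts of PAXX-/- cells were all lower in the double mutant. They and the 5 of the double mutant were chosen by frequency in their own genotype, which favours a higher share there. ACT was inserted at 1.04% ± 0.248 of PAXX-/- and 0.0530% ± 0.0324 of double-mutant Sα junctions (SD, n = 6 each), and AGT at 0.628% and 0.0564%. AC went from 0.875% to 0.140%, AT from 0.433% to 0.168% and GT from 0.423% to 0.105%. The most frequent insert of the double mutant was TT, at 0.357% ± 0.140 in PAXX-/- and 1.48% ± 0.251 in the double mutant. AA, also among its 5, stood at 0.351% and 0.355%, and TA at 0.0864% and 0.282%. TTG was found at 0.168% and 0.627%, and TTGT at 0.153% and 0.603%. After position 66, however, a bait with C67T itself reads TTGT, so at that end these letters can be bait. With bait ends 65 and 66 left out, a setting chosen after the data were seen, TTG and TTGT remained at 5 and 1 of 138 and 133 double-mutant junctions. TT then stood at 0.235% and 0.161% in the PAXX-/- clones, against 0.489% and 0.345%. ACT stood at 0.626% and 0.749%, against 0.0292% and 0.0591%. Single inserted bases were A in 42.8% and 50.0% of cases in the PAXX-/- clones, against 29.8% and 25.3% in the double mutants, and T in 40.5% and 34.9% against 48.0% and 54.0%. Without those bait ends A made up 40.4% and 44.5% against 37.9% and 32.7%, and T 41.3% and 36.5% against 33.0% and 39.0%, so the difference in T was not present away from these ends.

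Some inserts of 3 or more bases equalled the bait carried on past its aligned end, with only the first base changed. Outside positions 66 and 67, G-to-A changes of this kind were found at 164 and 90 Sα junctions in the PAXX-/- clones, against 5 and 6 in the double-mutant clones. As shares of Sα junctions these were 1.41% ± 0.199 and 0.0498% ± 0.0272 (SD, n = 6 each), a 28.3-fold difference on a measure defined after the data were seen. G78A alone was present in 30 and 28 junctions of the PAXX-/- clones and in none of the double-mutant junctions, which allows shares of up to 0.0271% and 0.0281%. G87A was present in 45 and 24 junctions against 0 and 1. The same bait positions were also where the double mutant seldom ended, as described next, and these quantities are not independent.

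The bait stopped at different bases in the 2 genotypes. Of 100 bait ends with enough junctions to test, 54 passed (54.0%), 32 of them higher in the double mutant and 22 lower. All 11 ends from position 76 to 86, just past the palindrome, were lower. Together they took 17.1%, 17.0% and 18.6% of Sα junctions in PAXX-/- clone 1 and 23.3%, 19.2% and 20.3% in clone 2, but 1.73%, 1.99% and 2.01% and then 1.79%, 1.94% and 1.89% in the double mutant. This run of positions was chosen from these Sα values, which are therefore a description. In joins of the bait to its own flank, which were not used to choose it, it took 16.5% ± 1.97 against 1.72% ± 0.126 (SD, n = 6 each), a difference of -14.8 percentage points (95% interval -16.9 to -13.0, adjusted exact permutation p = 0.00245 over 26 added measures).

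Single ends show the same step. End 77 took 3.48% ± 0.364 and 3.89% ± 0.667 of Sα junctions in the PAXX-/- clones, against 0.142% ± 0.119 and 0.101% ± 0.0976 in the double-mutant clones (SD, n = 3 each). End 66, in the centre of the palindrome and within AGCT, was the most used in the double mutant, at 9.11% ± 0.447 and 10.1% ± 0.301 against 3.19% and 4.68%. Its neighbour, end 65, ran the other way, at 1.27% and 1.33% in the double mutant against 4.53% and 6.70%. The common changed bases at positions 66 and 67 can stop an alignment at exactly these ends, so ends 65 and 66 cannot be compared as breaks between clones that differ in those bases. PAXX-/- clone 1, which carries neither as a common base, used end 65 more than end 66.

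**Figure D3:**
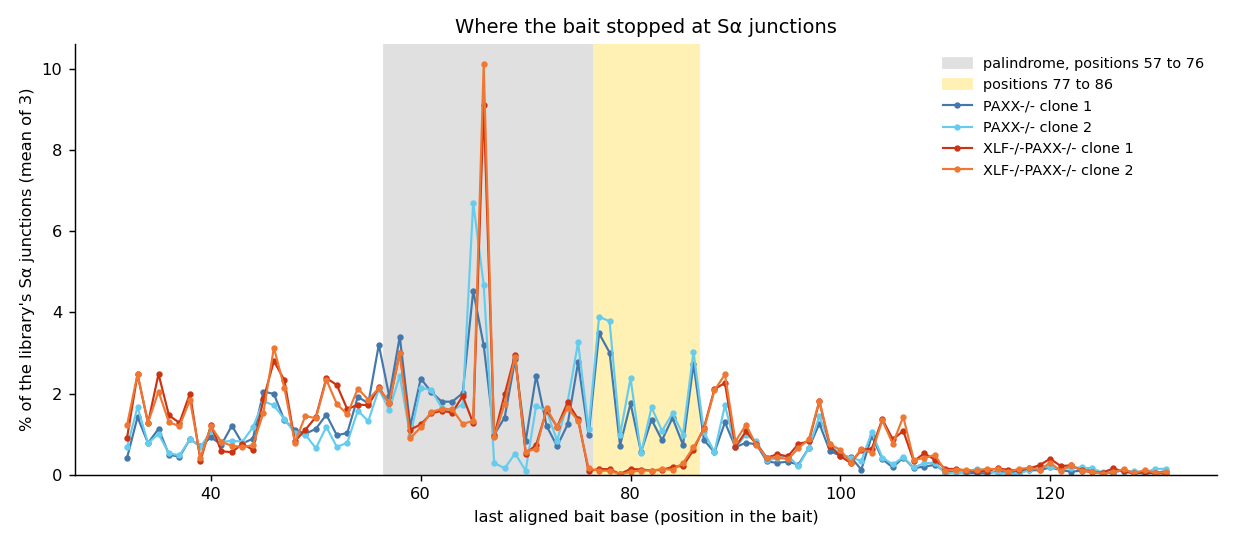
Share of Sα junctions by the last aligned bait base, mean of 3 libraries a clone; grey marks the palindrome (positions 57 to 76) and yellow positions 77 to 86. The PAXX-/- lines stay high across the yellow band, with 3.48% and 3.89% at end 77, whereas the double-mutant lines drop to 0.142% and 0.101% there.

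Prey ends moved along Sα, away from its AGCT-rich part. AGCT, which reads the same on both strands, occurred 113 times in the 3 kb at 114500001 to 114503000 and 30 times in the 3 kb next to it on the far side from the bait, and 39 of the 40 bins of 500 bases in the window held at least 1. The AGCT-rich 3 kb took 53.8% ± 1.88 of deletional Sα junctions in PAXX-/- and 26.6% ± 1.68 in the double mutant, and the AGCT-poor 3 kb 41.1% ± 1.91 and 60.5% ± 1.35 (SD, n = 6 each). The larger share thus passed from one block to the other in all 12 libraries. Since the blocks were set with the profile known, no test is given for them. In the planned profile 38 of 40 bins passed (95.0%), 32 higher in the double mutant and 6 lower. The 6 were those of the AGCT-rich 3 kb, a match that follows in part from how the block was set. Bin shares of a library sum to the whole, so rises and falls are not independent.

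The largest rises were in the bins at 114498501 to 114499000, 114499001 to 114499500 and 114498001 to 114498500. The first took 6.21% and 6.34% of Sα junctions in the PAXX-/- clones, against 11.2% and 11.3% in the double-mutant clones. The largest fall, at 114500001 to 114500500, was from 19.2% and 17.7% to 8.58% and 11.7%. Double-mutant clone 2 had 2 sites of repeated insertion joins there that PAXX-/- clone 1 also had, at 114500087 and 114500098, with 77 and 78 junctions. The next bin, 114500501 to 114501000, went from 11.4% and 10.6% to 4.67% and 4.07%.

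A stretch of 150 bases is shown from the bin of largest rise and from the bin of largest fall, with AGCT in capitals. It was the fullest stretch of its bin without the repeated insertion sites. Fullness was judged in the double mutant for the rise and in PAXX-/- for the fall. That choice favours the direction of the shares given below, which are descriptions.
Largest rise, chr12:114498764-114498913: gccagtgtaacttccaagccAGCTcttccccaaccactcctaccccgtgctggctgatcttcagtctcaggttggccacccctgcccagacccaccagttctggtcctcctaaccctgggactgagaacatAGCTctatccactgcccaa
Largest fall, chr12:114500174-114500323: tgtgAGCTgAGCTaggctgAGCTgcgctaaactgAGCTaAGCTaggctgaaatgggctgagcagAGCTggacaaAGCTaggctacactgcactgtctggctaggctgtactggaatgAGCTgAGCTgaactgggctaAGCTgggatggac
The first holds 2 AGCT and went from 1.88% ± 0.213 and 2.10% ± 0.431 of Sα junctions in the PAXX-/- clones to 3.65% ± 0.347 and 3.96% ± 0.0889 in the double-mutant clones (SD, n = 3 each). The second holds 10 and went from 6.44% ± 0.617 and 6.87% ± 1.59 to 2.87% ± 0.434 and 2.43% ± 0.203.

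Within each block, double-mutant prey ends also lay at AGCT less often. In the AGCT-rich 3 kb, 32.9% ± 2.86 of PAXX-/- and 27.7% ± 1.75 of double-mutant deletional prey ends were in or beside AGCT, where 18.9% of positions are. In the AGCT-poor 3 kb the values were 9.93% ± 0.809 and 6.73% ± 0.188 (SD, n = 6 each), where 5.01% of positions are. All libraries lay above the share of positions, so prey ends of both genotypes lay at the motif more often than positions do. Joins that share bases with the bait are included, and whether the breaks themselves favoured the motif was not tested. In the AGCT-rich block the PAXX-/- clones, at 35.4% and 30.3%, differed from each other about as much as the genotypes did, and the double-mutant clones stood at 26.2% and 29.2%. In the AGCT-poor block the clone means were 10.2% and 9.69%, against 6.89% and 6.57%. The differences of -5.16 and -3.20 percentage points had 95% intervals of -8.39 to -1.89 and -3.83 to -2.41 (adjusted exact permutation p = 0.00245 for each, among the added measures).

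**Figure D4:**
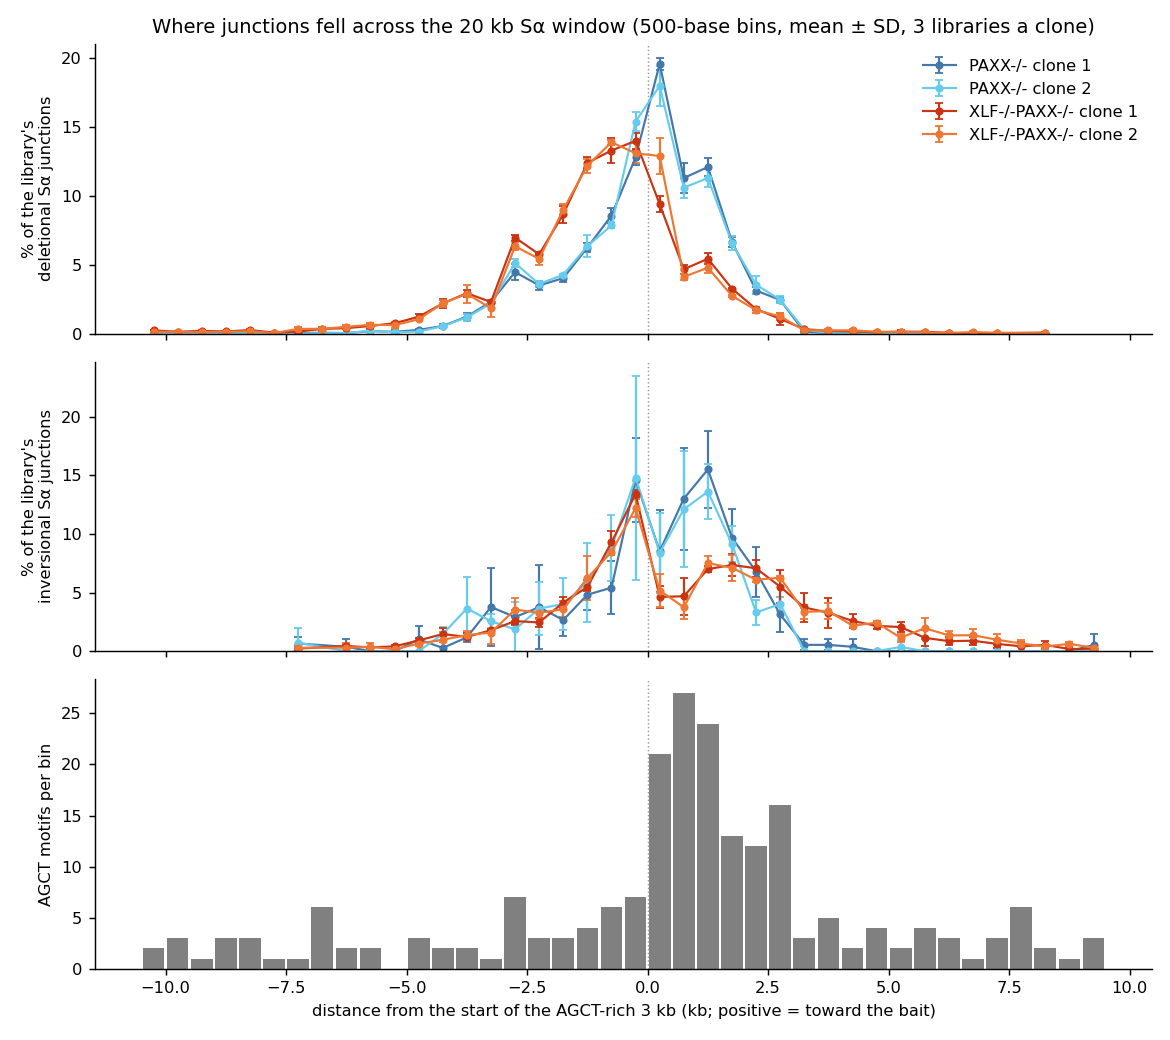
Share of deletional (top) and inversional (middle) Sα junctions by 500-base bin, mean ± SD of 3 libraries a clone, above the number of AGCT per bin (bottom); the dotted line is the start of the AGCT-rich 3 kb and the bait lies to the right. Deletional joins of the double mutant move to the left of the line, and its inversional joins reach farther to the right.

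Orientation at Sα was less strict in the double mutant. Deletional joins were 96.8%, 96.8% and 97.1% of Sα junctions in PAXX-/- clone 1 and 97.3%, 96.4% and 96.6% in clone 2, against 83.1%, 82.7% and 82.6% and then 84.5%, 84.1% and 84.7% in the double mutant. The ranges did not overlap (difference -13.2 percentage points, 95% interval -14.2 to -12.3, adjusted exact permutation p = 0.00338). Prey also lay outside the core of Sα more often. The core was the shortest interval that holds 90% of Sα-window junctions over the whole series, each clone weighted equally (chr12:114496668-114502828). Other genotypes of the series were thus included in setting it. The share outside was 3.46% to 4.04% in the PAXX-/- libraries and 11.8% to 15.1% in the double-mutant libraries.

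The 2 orientations spread in opposite directions. Deletional joins of the double mutant went past the core on the side away from the bait, in 9.98% ± 1.04 of cases against 3.16% ± 0.303 (SD, n = 6 each), and on the bait side in 1.67% against 0.478%. Inversional joins lay past the core on the bait side in 21.3% ± 1.48 of cases against 2.26% ± 1.46 (difference 19.1 percentage points, 95% interval 17.2 to 20.9, adjusted exact permutation p = 0.00338). PAXX-/- had few inversional joins, 336 and 227 by clone, against 1910 and 1659. Of 37 bins tested for deletional joins, 32 passed (86.5%), and of 33 for inversional joins, 18 passed (54.5%). Of those 18, 15 were higher in the double mutant, and the 3 lower ones lay within the AGCT-rich 3 kb. The rest of that block did not fall in the same way. Its bin at 114502501 to 114503000 was higher, at 3.58% in PAXX-/- and 5.88% in the double mutant, and its remaining bins did not pass.

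**Figure D5:**
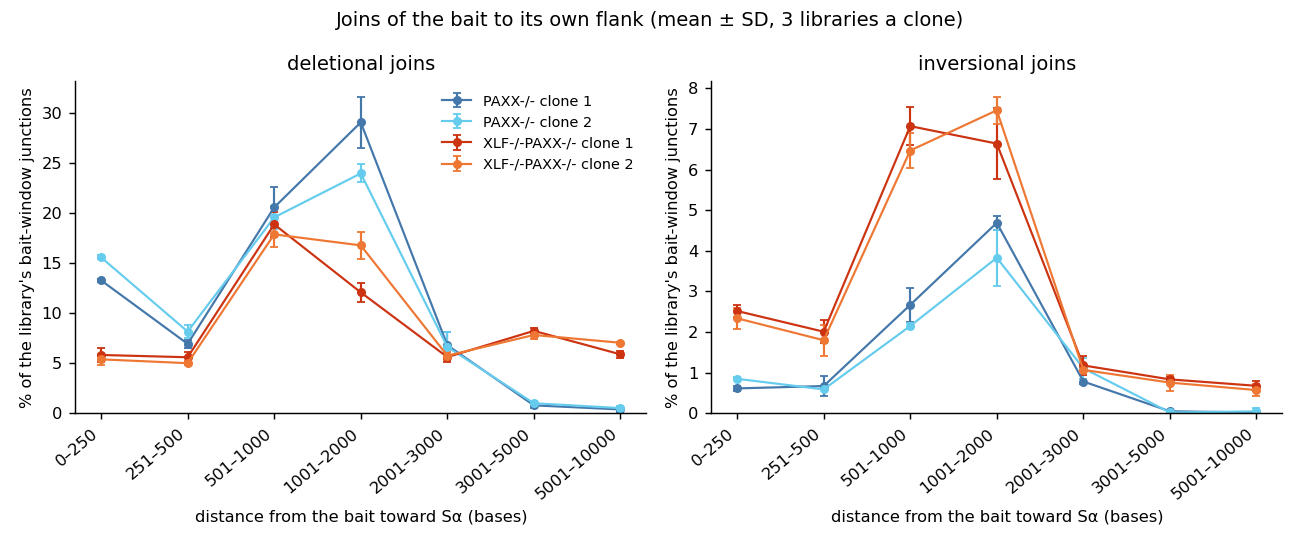
Joins of the bait to its own flank on the side toward Sα, by distance, as a percentage of the bait-window junctions of a library (mean ± SD of 3 libraries a clone; bins of unequal width). Deletional joins 3001 to 5000 bases away are at 0.801% and 1.01% in PAXX-/- and at 8.25% and 7.84% in the double mutant.

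Joins of the bait to its own flank changed in the same ways as those to Sα. In the window of 10 kb to each side of the bait, direct joins were 17.0% to 20.0% in the PAXX-/- libraries and 6.34% to 8.19% in the double-mutant libraries, and microhomology joins rose by 17.8 percentage points (n = 6 each; adjusted exact permutation p = 0.00338 for both). Near joins were fewer: deletional joins within 250 bases of the bait fell from 14.7% ± 1.40 to 5.66% ± 0.644 of the joins in this window. Far joins were more frequent. Among deletional joins, those over 3 kb away were 1.18%, 1.48% and 1.44% in PAXX-/- clone 1 and 1.88%, 1.88% and 1.51% in clone 2, against 20.4% to 21.4% in double-mutant clone 1 and 20.5% to 22.4% in clone 2. The ranges lay far apart (difference 19.6 percentage points, 95% interval 19.0 to 20.4, adjusted exact permutation p = 0.00338).

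Deletional joins were 87.4% ± 1.32 of the joins in the bait window in PAXX-/- and 68.5% ± 1.78 in the double mutant (SD, n = 6 each). At 1001 to 2000 bases, the fullest bin in PAXX-/- but wider than those nearer the bait, deletional joins took 29.1% and 24.0% in the PAXX-/- clones. The double-mutant clones gave 12.1% and 16.8%. Inversional joins at 501 to 1000 bases moved up from 2.67% and 2.15% to 7.07% and 6.47%. Orientation in the bait flank thus loosened as it did at Sα. The bait window as a whole held 27.4% ± 2.30 of all junctions in PAXX-/- and 31.9% ± 1.37 in the double mutant (adjusted exact permutation p = 0.00637), with overlap between libraries.

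More joins of the double mutant reached the DNA between the windows and around them. Between the bait and Sα windows lay 0.208%, 0.470% and 0.476% of junctions outside the bait window in PAXX-/- clone 1 and 0.460% to 0.700% in clone 2. The double-mutant libraries gave 2.32%, 2.05% and 2.30% and then 3.14%, 3.59% and 3.11%. No libraries overlapped, although the double-mutant clones also differed from each other (difference between genotypes 2.25 percentage points, 95% interval 1.62 to 2.89, adjusted exact permutation p = 0.00338). In PAXX-/- these joins were clustered, with 26 of 58 and 38 of 66 in the window at 114600001 to 114610000. The same window held 53 of 396 and 87 of 519 in the double mutant, where the fullest of the 16 windows of 10 kb, which touches the bait window, held 76 and 107.

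Beyond Sα, 10 to 50 kb past its centre, lay 0.685% ± 0.191 of junctions outside the bait window in PAXX-/- and 2.49% ± 0.178 in the double mutant (SD, n = 6 each). On the other side of the bait, from 10 kb to 1 Mb away, the shares were 0.280% ± 0.0230 and 0.999% ± 0.142. Most of the rise on that side was inversional, 142 of 165 and 144 of 169 junctions in the double-mutant clones against 24 of 42 and 19 of 30. Both measures were added after the data were seen, and neither had overlap between libraries.

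The far joins of the double mutant divided by a single base of the bait. In PAXX-/- clone 2, 55.9% ± 0.751 of bait reads had G66A alone and 40.9% ± 0.252 had C67T alone (SD, n = 3), and 0.345% had both. The double-mutant clones carried C67T alone in 45.2% ± 1.42 and 51.1% ± 1.65 of reads and G66A alone in 0.238% and 0.221%. PAXX-/- clone 1 read as the unchanged bait at both positions in 96.7% ± 1.63 of reads. These and the next values use only reads whose bait reached position 75 or beyond, where both bases can be read.

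In double-mutant clone 1, 251 of 903 deletional joins to the bait flank were over 3 kb away on reads without C67T, against 6 of 536 on reads with it. Clone 2 gave 277 of 808 against 7 of 621. Joins between the windows numbered 94 and 125 on reads without C67T and 8 and 5 on reads with it. Both kinds thus came nearly all from reads without C67T. Distances and orientations are those of the mm9 reference, and whether the chromosomes marked by these bases differ from it in structure was not tested. Inversional Sα joins past the core followed the same split, with 100 of 287 and 98 of 240 against 2 of 176 and 6 of 154. Joins within 1 Mb on the far side of the bait were the reverse, with 0 of 2350 and 0 of 1914 on reads without C67T, which allows shares of up to 0.128% and 0.157%, and 30 of 2290 and 31 of 2304 on reads with it.

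Within double-mutant libraries, reads with C67T went to Sα more often, by 18.0 percentage points ± 2.40 (SD, n = 6), and joined it in deletional orientation more often, by 12.4 ± 4.28, in 6 of 6 libraries each. The over-3-kb share fell by 29.7 ± 4.24 on them, in 6 of 6 libraries. Each of these reached the smallest p that an exact sign-flip permutation over 6 libraries allows (p = 0.0312). None passed after adjustment over the 6 measures compared (adjusted exact sign-flip permutation p = 0.0625). The split by C67T was chosen after these data were seen, so these values are descriptions and not support for it. The direct share was 7.51% and 5.36% of Sα joins on reads without C67T and 5.52% and 5.03% on reads with it. The difference was -1.16 percentage points ± 1.71 (SD, n = 6), lower in 4 of 6 libraries (adjusted exact sign-flip permutation p = 0.328). This test passed no measure even at 6 of 6 libraries, so it cannot tell whether the direct share separates by this base.

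PAXX-/- clone 2 allowed the same split at far lower numbers. Its joins over 3 kb away were 11 of 630 on reads with G66A and 0 of 760 on reads with C67T, which allows up to 0.395%. Its joins between the windows were 25 and 1, and those within 1 Mb on the far side of the bait 0 of 2332 and 8 of 1440. For these kinds of joins the division by base was thus present without XLF loss, and the double mutant was higher on the side that held them. Other shares divided differently. The Sα share was 73.4% ± 6.47 with G66A and 69.8% ± 8.45 with C67T (SD, n = 3 each), whereas double-mutant reads with C67T were higher. The bait-window share was 23.4% with G66A and 35.6% with C67T. Double-mutant reads gave 35.1% and 37.3% without C67T and 25.6% and 27.9% with it. Orientation moved on both sides: 97.9% and 97.2% of Sα joins were deletional on the reads of PAXX-/- clone 2 with G66A and with C67T, against 77.8% and 77.5% on double-mutant reads without C67T and 89.0% and 91.3% on those with it. How much of each change a chromosome carrying 1 of these bases contributes in PAXX-/- clone 1 was not tested, since its reads do not mark them.

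On other chromosomes the genotypes were closer. Direct joins were 14.1% to 20.0% in the PAXX-/- libraries and 12.5% to 16.5% in the double-mutant libraries (difference -2.98 percentage points, 95% interval -5.46 to -0.523, adjusted exact permutation p = 0.0325), with the call lost under 12 of 27 alternatives. Microhomology joins were 53.2% ± 5.02 and 60.1% ± 5.79 and did not pass (adjusted exact permutation p = 0.0670). Microhomology length, higher at Sα in the double mutant, was 4.14 ± 0.256 and 3.92 ± 0.0937 bases there (adjusted exact permutation p = 0.0861). Taken as Sα minus other chromosomes within a library, the direct share differed between the genotypes by -8.05 percentage points (95% interval -10.0 to -6.17, adjusted exact permutation p = 0.00245, an added measure). The 2 sets of joins differ in make-up. Gaps over 20 bases, counted as insertions, were 18.9% ± 6.35 of PAXX-/- and 14.1% ± 7.07 of double-mutant joins on other chromosomes (SD, n = 6 each). At Sα they were 3.42% and 1.52%.

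The overall share of junctions outside the bait window that reached Sα was 68.1% ± 9.99 in PAXX-/- and 65.2% ± 4.22 in the double mutant (SD, n = 6 each), and the difference had a 95% interval of -12.1 to 7.01 percentage points (adjusted exact permutation p = 0.530). PAXX-/- clone 2 ran from 51.5% to 68.6%, so its own libraries differed by more than the genotypes did. Other chromosomes took 28.5% ± 9.41 and 25.1% ± 4.54. The fullest window outside chromosome 12, chr14:32420001-32430000, held 110 and 103 junctions in the PAXX-/- clones, against 209 and 204 in the double-mutant clones, or 0.744%, 0.935%, 1.17% and 1.25% of junctions outside the bait window. The window at chr8:129110001-129120000 held 2 and 1 against 18 and 21 junctions. Not every listed window was higher in the double mutant. By the same share, chr8:125950001-125960000 stood at 0.159% and 0.0561% in the PAXX-/- clones, against 0.0934% and 0.139% in the double-mutant clones. For chr1:20660001-20670000 the shares were 0.111% and 0.163% against 0.0978% and 0.0295%. For chr14:115440001-115450000 they were 0.0283% and 0.0465% against 0.0672% and 0.109%. Windows are given by position only.

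Loss of XLF alone, measured in the runs that also held the PAXX-/- libraries, gave values near those of the double mutant, as side values with no test. Direct Sα joins were 5.95% in the first of those runs (n = 2) and 6.39% in the other (n = 4), against 17.0% and 16.8% for PAXX-/- in the same runs and 5.84% for the double mutant in its own. Bait ends 76 to 86 took 2.19% and 2.20% in XLF-/-, against 20.2% and 18.8% in PAXX-/-. Deletional bait-flank joins over 3 kb away were 19.6% and 17.6%, against 1.53% and 1.58%. Each of these values therefore differed between XLF-/- and PAXX-/- within a shared run.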

How the data were processed

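LAM-HTGTS junctions were analysed in 12 libraries. The submitters' processing notes name Bowtie2 and the mm9 build, and no source used here gives the other steps. The authors' deposited tables hold, per junction, positions on read and genome and a strand (other values, with no normalization). Overlap of bait and prey alignments on the read was counted as microhomology above 0, direct at 0 and insertion below 0. The Sα window spanned 20 kb, centred where 1 kb bins lying 50 kb or more from the bait were fullest over the whole series. Each library gave 1 value per measure, and genotypes were compared by exact two-sided permutation with intervals from its inversion and Benjamini-Hochberg adjustment at 0.05 over 25 planned measures, over 26 added ones, or over the classes of a profile with 10 or more junctions. Libraries were numbered by name. The labels call them biological replicates. No value columns were left unused (0). Upper limits for counts of 0 use 3 counts and cover counting error only.

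Members, measures and lists were chosen with earlier results of these data known. Named regions were the 3 Sα bins of largest rise and fall, the 5 most used bait ends, 10 shared and 5 inserted sequences, and 5 windows on other chromosomes. Sequences come from the deposited reads and reference columns. The AGCT-rich and AGCT-poor 3 kb, bait ends 76 to 86 and the split by bait base were chosen after seeing the data. Repeated lines (same junction, strand and bait end) were 0.917% to 1.30% of a library. The share of exact junctions common to a pair of libraries was 3.77% to 13.4% within a clone and 2.42% to 11.1% between clones. Scripts were tested on simulated data. Alternatives covered windows, gaps over 20 bases, depth, repeated lines, changed bait bases, runs, clones and libraries. The scripts ran in Python 3.11.15 with scipy 1.17.1, numpy 2.4.6 and pandas 2.3.3.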

Additional observations from a re-analysis of the deposited data

Results flagged for a closer look

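In 50 groups of 6 libraries, 5 had a library that stood apart from the rest of its genotype by Dixon's criterion, and chance flags about 1 in 20 groups. Mean microhomology length at Sα was lowest in PAXX-/- clone 1 library 3, at 2.28 bases. The microhomology share of Sα joins without insertions was highest in PAXX-/- clone 1 library 1, at 77.4%. The direct share in the bait window was highest in PAXX-/- clone 1 library 3, at 20.0%. In the double mutant, the share outside the Sα core was lowest in clone 2 library 1, at 11.8%, and the share of inversional joins past the core was lowest in clone 1 library 3, at 18.4%.

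The effect of genotype differed between Sα and other chromosomes in 4 measures, each taken as Sα minus other chromosomes within a library and compared between genotypes over 6 libraries each. The direct share differed by -8.05 percentage points and the microhomology share by 10.7 (adjusted exact permutation p = 0.00245 and 0.0293). Microhomology length differed by 0.723 bases (adjusted exact permutation p = 0.00245). The share of bait ends 76 to 86 differed by -14.4 percentage points, given without a test because these ends were chosen from the Sα values.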

How the results depend on the processing

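No paired analysis was possible because the library names in the tables could not be tied to the replicate numbers of the labels. Of the 25 planned measures, 16 kept their direction and their side of the threshold under all 27 alternatives, among them the direct, microhomology and insertion shares at Sα and in the bait window, the deletional share, the share outside the core, joins over 3 kb away and joins between the windows. Differences below are double mutant minus PAXX-/-, in percentage points unless bases are named, and the cause was not tested. The share of bait ends at AGCT, 2.21, was -9.81 with bait ends before position 66, -1.18 before 65, -0.0639 with the common changed bases realigned and 0.668 with any changed base realigned, 0.897 without PAXX-/- clone 1, 2.00 without double-mutant clone 2 and 1.57 with PAXX-/- run 1 only. Insertion length no longer passed without PAXX-/- clone 1 (0.219 bases), without double-mutant clone 2 (0.343) or before 65 (0.476), and the bait-window share without double-mutant clone 2 (3.70). The Sα share changed sign without PAXX-/- clone 1 (2.90), with run 1 only (6.93) and before 65 (1.39). The other-chromosome share changed sign without PAXX-/- clone 2 (1.96) and with run 2 only (1.26), and passed with run 1 only (-12.8).

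On other chromosomes the direct share no longer passed before 66 (-2.48), before 65 (-2.83), without PAXX-/- clone 1 (-2.10), without double-mutant clone 1 (-3.34) or clone 2 (-2.63), and with run 2 only (-2.46). Leaving out 1 library gave -3.69 to -2.52, and 6 such choices lost the call. The microhomology share passed without gaps over 20 bases (4.32), before 66 (6.83) and 65 (5.90) and without double-mutant clone 1 (10.2), and was 5.10 to 8.36 with 1 library left out. Microhomology length passed without PAXX-/- clone 1 (-0.366 bases) and with run 2 only (-0.317), and was -0.300 to -0.175 with 1 library left out. The insertion share changed sign without gaps over 20 bases (0.402).

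Of the profile counts, insertion lengths went from 2 to 0 when any 1 of the 4 clones was left out and with run 1 only, and to 1 with any changed base realigned and before 65. Bait ends went from 54 to 20 before 66, 23 before 65 and 0 with run 1 only, and Sα bins from 38 to 18 in a 10 kb window, which has fewer bins. With a clone left out 84 splits exist, and no p below 0.0119 is possible before adjustment. With 2 PAXX-/- libraries 28 splits exist, and no p below 0.0357 is possible there before adjustment. At either limit, 2 of 20 insertion lengths cannot pass after adjustment. The drop of the insertion-length count to 0 therefore does not tell whether it depends on a clone or run. With 28 splits, 54 of 100 bait ends all at the smallest p cannot pass after adjustment either. Their drop to 0 with run 1 only thus does not tell whether they depend on the run. PAXX-/- libraries held 9 to 26 joins between the windows and 46 to 127 inversional Sα joins, which limits the precision of those shares.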

Other observations

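A few single positions in Sα gathered insertion joins from many bait ends, and they differed by clone. Over the 4 clones 10 such sites were found, each with 20 or more junctions, 10 or more bait ends and at least 80% insertions in some clone. They held 3.41% and 3.69% of Sα junctions in the PAXX-/- clones, against 1.70% and 2.16% in the double-mutant clones. The site at 114500015 held 122 junctions in PAXX-/- clone 2 and 7, 3 and 2 in PAXX-/- clone 1 and the double-mutant clones. The site at 114500032 held 153 in double-mutant clone 1 and no more than 5 in another clone. Those at 114500087 and 114500098 held 104 and 144 in PAXX-/- clone 1 and 77 and 78 in double-mutant clone 2, and no more than 4 in the other clones.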
